A study of Mus musculus with 24 samples.

Results

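Ms4a4b, Ms4a4c, Ms4a6b and Ms4a6c are 4 of the 24447 genes counted in the NK1.1+CD3e+ single-cell table of mouse liver, and 4 of the 17 genes of the table whose symbol begins with Ms4a. They were taken by symbol and chosen by measured values, namely high Ms4a4c in cells resembling circulating T cells and low Ms4a6c in cells of Jα18-deficient mice, so the values of both contrasts are given as a description without a test. The cells came from adult mice of 3 genotypes. The study names C57BL/6 as the strain of the WT mice and gives no strain for the deficient lines. WT mice have type I and type II NKT cells. Jα18-deficient mice lack the TCR joining segment that type I (invariant) NKT cells require, and in CD1d-deficient mice the lipid-presenting molecule that both types recognise is missing. No group was treated. Such Jα18-deficient lines can lack further Jα segments besides Jα18, which narrows the TCR repertoire of their other T cells. In the CD1d-deficient mice CD1d2 was not deleted, which the study says might alter their pool of CD1d-independent cells. The labels list 8 libraries per genotype, whereas a cell's name carries only its genotype, so the 623 WT, 725 Jα18-deficient and 387 CD1d-deficient cells formed 1 pool each and no test between genotypes was possible. The pools held 34102694, 60484252 and 14536585 UMIs (unique molecular identifiers, each counting 1 captured transcript). The median cell had 40467 UMIs in WT mice, 46670 in Jα18-deficient mice and 13508 in CD1d-deficient mice.

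The Ms4a genes encode small membrane-spanning proteins. The best known are CD20 (Ms4a1) of B cells and the beta chain of the IgE receptor (Ms4a2) of mast cells and basophils. Ms4a4b is abundant in T cells, where its protein associates with the costimulatory receptor GITR (Tnfrsf18) and modulates activation and proliferation. Ms4a6b encodes another T cell protein that was found beside GITR. Ms4a4c is a close relative of Ms4a4b with a less studied product, and Ms4a6c belongs to a group of Ms4a6 genes that myeloid cells also use.

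All 4 genes lie on the plus strand of chromosome 19 (mm9, NCBIM37) within 126487 bases. In order along the chromosome they are Ms4a4c (chr19:11479260-11501736), Ms4a4b (chr19:11518043-11538039), Ms4a6c (chr19:11543858-11556687) and Ms4a6b (chr19:11591002-11605746). Between neighbours lie 16306, 5818 and 34314 bases. Within the set, Ms4a4b thus follows its closest relative Ms4a4c, and Ms4a6b follows Ms4a6c. The coding sequences of Ms4a4b and Ms4a4c were identical at 91.8% of aligned bases, those of Ms4a6b and Ms4a6c at 85.0%, and the other pairs at 53.5% to 56.0%.

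Ms4a4b and Ms4a4c share an identical run of 127 bases, shown here because it bears on how their UMIs could be told apart. The run covers coding bases 321 to 447 of both genes, at the end of exon 5 and the start of exon 6 of 7 (chr19:11533651-11533768 and chr19:11535747-11535755 for Ms4a4b, chr19:11493491-11493608 and chr19:11495748-11495756 for Ms4a4c). Capitals mark the shared run, and lower case the 30 coding bases on either side:
Ms4a4b: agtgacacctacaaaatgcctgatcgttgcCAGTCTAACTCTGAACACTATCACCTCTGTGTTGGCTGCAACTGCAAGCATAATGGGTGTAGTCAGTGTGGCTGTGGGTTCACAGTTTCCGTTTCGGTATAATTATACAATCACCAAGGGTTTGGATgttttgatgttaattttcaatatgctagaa
Ms4a4c: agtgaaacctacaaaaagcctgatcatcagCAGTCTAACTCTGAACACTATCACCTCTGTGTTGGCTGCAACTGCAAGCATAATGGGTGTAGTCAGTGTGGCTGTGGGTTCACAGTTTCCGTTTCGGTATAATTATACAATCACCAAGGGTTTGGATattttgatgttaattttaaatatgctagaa
Of the 1145 windows of 100 bases in the Ms4a4b transcript, 28 occur unchanged in Ms4a4c. Before trimming, the reads of the study were longer than the run of 127 bases, so a whole read could not lie within it. Ms4a6b and Ms4a6c share a longest run of 96 bases, after the coding sequence, and no window of 100. How shared reads were assigned is not given in the sources used here, so a small spill of Ms4a4b UMIs into Ms4a4c could not be measured directly.

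The 250 bases before the start of Ms4a4b and of Ms4a4c are printed because these close relatives differed widely in level while their promoters resemble each other near the start. They are from RefSeq, GRCm38.p6, plus strand, at chr19:11443308-11443557 for Ms4a4b and chr19:11407411-11407660 for Ms4a4c, with the letters CACCC or their complement GGGTG (the core bound by KLF factors, of which Klf2 is used below to mark cells) in capitals:
Ms4a4b: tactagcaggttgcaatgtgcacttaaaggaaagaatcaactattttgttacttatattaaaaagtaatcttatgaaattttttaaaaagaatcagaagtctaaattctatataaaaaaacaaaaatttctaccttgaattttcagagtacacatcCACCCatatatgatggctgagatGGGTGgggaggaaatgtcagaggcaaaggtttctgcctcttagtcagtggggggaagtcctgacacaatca
Ms4a4c: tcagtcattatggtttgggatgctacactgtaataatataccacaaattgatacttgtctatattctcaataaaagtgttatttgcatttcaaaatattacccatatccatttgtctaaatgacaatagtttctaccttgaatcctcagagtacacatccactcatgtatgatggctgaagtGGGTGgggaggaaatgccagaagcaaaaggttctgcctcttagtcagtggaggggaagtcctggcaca
Over 132 aligned bases next to the start, 117 (88.6%) were identical. The core was present 2 times before Ms4a4b, 1 time before Ms4a4c, 2 times before Ms4a6b and not before Ms4a6c. It is common, being in 52.0% of 32851 mouse promoters of that length on either strand. GTAAACA (FOXO, in 3.17% of promoters on either strand) was not found before any of the 4 genes. A match describes letters and not binding.

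Ms4a4b was the most abundant of the 4 transcripts in every pool, followed by Ms4a6b, and the 2 others were far lower. As UMIs per 1000000 UMIs of the pool (CPM), Ms4a4b stood at 2505 in WT, 2666 in Jα18-deficient and 2583 in CD1d-deficient cells. Ms4a6b stood at 984, 638 and 574 CPM. Ms4a4b and Ms4a6b supplied 76.2% and 21.6% of the 373104 UMIs of the whole Ms4a family. Ms4a4c stood at 24.3, 25.8 and 45.1 CPM in the same order of pools, and Ms4a6c at 45.0, 17.9 and 43.3 CPM. Ms4a4c therefore ranked below Ms4a6c in WT cells and above it in Jα18-deficient cells. In CD1d-deficient cells the exact Poisson 95% intervals of Ms4a4c (41.7 to 48.7 CPM) and Ms4a6c (40.0 to 46.8 CPM) overlapped, so these neighbours were not told apart. Per kilobase of transcript the order was the same in each pool, with 2014, 14.1, 367 and 24.4 CPM per kilobase for Ms4a4b, Ms4a4c, Ms4a6b and Ms4a6c in WT cells. These intervals and all others on pools and cells cover counting error only, not the spread between mice.

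**Figure D1:**
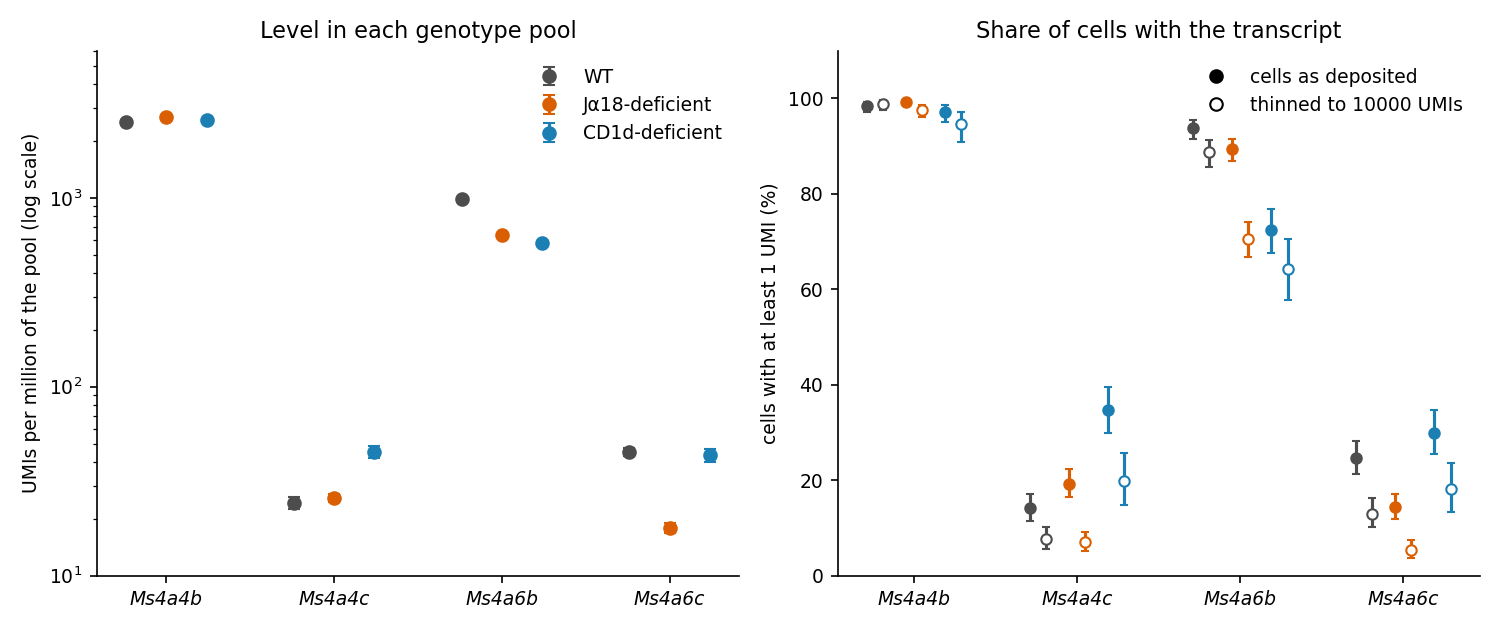
Left, level of each gene in the 3 genotype pools in CPM (log axis) with exact Poisson 95% intervals. Right, percentage of cells with at least 1 UMI, as deposited (filled) and after thinning each cell to 10000 UMIs (open), with exact Clopper-Pearson 95% intervals; Ms4a6c was detected in 5.38% of thinned Jα18-deficient cells against 13.0% of thinned WT cells.

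Between pools, Ms4a4b hardly moved, Ms4a6b was highest in WT cells, Ms4a4c was highest in CD1d-deficient cells and Ms4a6c was lowest in Jα18-deficient cells. The log2 ratio of Ms4a4b was 0.09 in Jα18-deficient over WT cells and 0.04 in CD1d-deficient over WT cells. Its sign turned in several settings, for example to -0.024 and -0.018 with TMM-scaled library sizes. For Ms4a6b the log2 ratios were -0.63 and -0.78, and the 2 deficient pools differed by 0.15 on that scale. The direction for Ms4a6b was the same in every setting tried. Median log2 ratios over all genes compared were 0.13 and 0.02, so both falls in Ms4a6b lie apart from the shift of the typical gene.

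Ms4a6c was 1.33 lower on the log2 scale in Jα18-deficient than in WT cells (95% interval of the decrease from -1.45 to -1.22), which is the contrast that led to its choice. It was lower in all 7 other settings, with log2 ratios between -2.07 and -1.17. The largest decrease was without the UMIs of the 5 highest cells of each pool and the smallest without cells carrying a myeloid or B cell marker. Among 4575 genes, 0.809% were lower past 2-fold in this contrast and 5.38% higher. Of the 4 genes, 3 met the minimum for that set, and Ms4a6c was the member past 2-fold. Ms4a6c met the minimum of 20% of cells through the WT pool alone (24.6% against 14.3% in Jα18-deficient cells). As this contrast also chose it, its place past 2-fold is a description and no support. Ms4a4c did not enter the set because under 20% of cells of either pool held it. In CD1d-deficient over Jα18-deficient cells Ms4a6c was again the member past 2-fold, with a log2 ratio of 1.28. That ratio dropped to 0.20 without cells carrying a myeloid or B cell marker (22.1 against 19.2 CPM). In this comparison over all cells, 2.99% of 4579 genes were higher past 2-fold. Ms4a6c met the minimum for it through the CD1d-deficient pool alone (29.97% against 14.3% of cells). No member was lower past 2-fold there, against 7.43% of genes. Against WT cells, none of the 4 was past 2-fold in the CD1d-deficient pool, where 3.25% of 3630 genes were lower past 2-fold. That pool showed a log2 ratio for Ms4a6c of -0.06 over all cells and -0.96 without cells carrying a myeloid or B cell marker.

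Ms4a4c was 0.89 higher on the log2 scale in CD1d-deficient than in WT cells, short of 2-fold, where 5.37% of 3630 genes were higher past 2-fold. It fell to 0.23 without cells carrying a myeloid or B cell marker. Between Jα18-deficient and WT cells its direction depended on the setting. The log2 ratio was 0.09 from summed UMIs, with a 95% interval of -0.04 to 0.21. It was -0.68 when each cell weighed the same and -0.99 after thinning to 10000 UMIs. It was also below 0 without cells carrying a myeloid or B cell marker (-0.45), without the 5 highest cells of each pool (-0.34) and with TMM (-0.028).

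**Figure D2:**
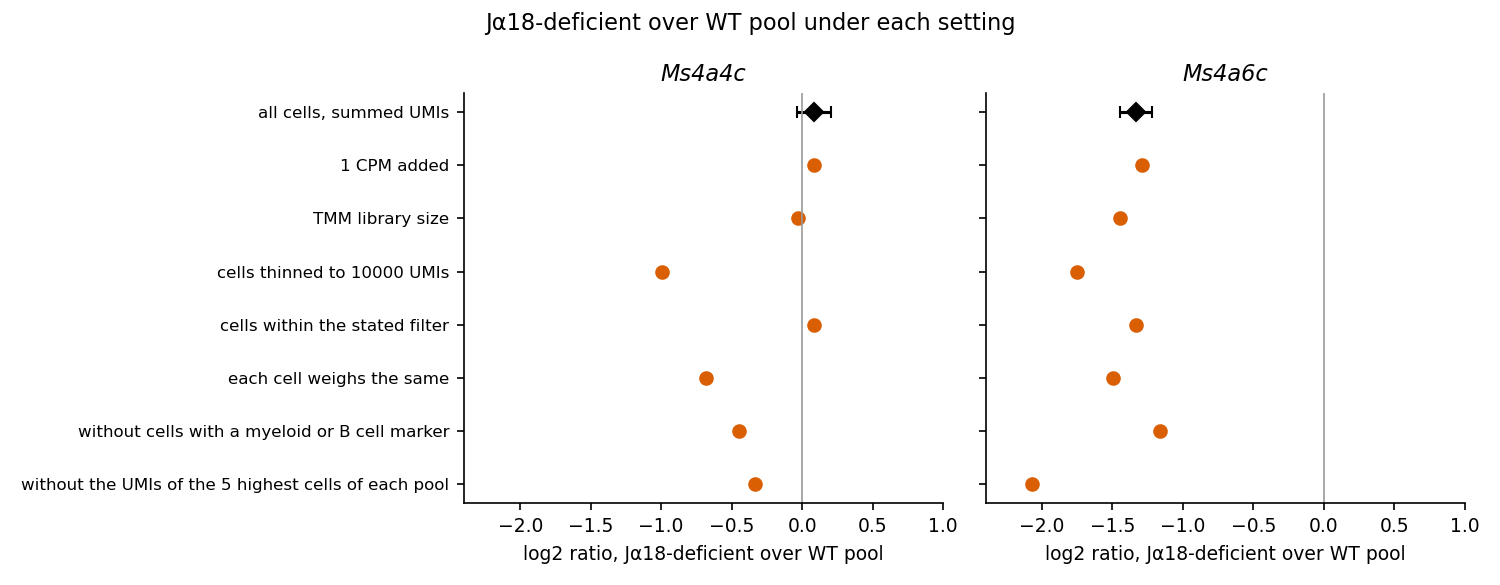
Log2 ratio of Jα18-deficient over WT cells for Ms4a4c (left) and Ms4a6c (right) under each setting; the diamond is the value from summed UMIs with its 95% counting interval. Ms4a6c lies between -2.07 and -1.17 throughout, while Ms4a4c lies on both sides of 0.

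In single cells, most UMIs of Ms4a4c and Ms4a6c came from few cells, whereas nearly all cells held Ms4a4b. Ms4a4b was detected in 98.4%, 99.3% and 97.2% of cells in the WT, Jα18-deficient and CD1d-deficient pools. Ms4a6b was detected in 93.7%, 89.4% and 72.4%. After thinning each cell to 10000 UMIs, which left 523, 632 and 227 cells, the shares for Ms4a6b were 88.7%, 70.6% and 64.3%. The median cell held Ms4a6b at 741, 379 and 213 CPM, against 2058, 1808 and 1930 CPM for Ms4a4b.

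Ms4a4c had a UMI in 14.1% of the WT pool, 19.3% of the Jα18-deficient pool and 34.6% of the CD1d-deficient pool. Thinned to equal depth, the shares became 7.65%, 6.96% and 19.8%. The CD1d-deficient pool had the highest share in both readings, and the order of the 2 others changed with thinning. Ms4a6c was detected in 24.6%, 14.3% and 29.97% of cells, and in 13.0%, 5.38% and 18.1% at equal depth. No cell type that should lack these genes was part of the sort. For comparison, the myeloid transcript Lyz2 had a UMI in 39.5%, 30.9% and 80.4% of cells, so a share of cells with 1 UMI may hold background and is read here only beside the higher classes.

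In cells as deposited and not thinned, those with 10 or more UMIs of Ms4a4c were few in each of the 3 pools. They were 20 WT (3.21%), 19 Jα18-deficient (2.62%) and 10 CD1d-deficient cells (2.58%). These cells supplied 85.5%, 85.8% and 57.3% of the Ms4a4c UMIs. Cells with 2 to 9 UMIs of Ms4a4c made up 2.73%, 5.79% and 16.3% of the pools in the same order. These classes count UMIs while depth differed, with medians of 40467, 46670 and 13508 UMIs per cell. A count of 10 UMIs is thus a higher level in a typical CD1d-deficient cell, and the shares are not compared between pools at equal level. By these counts, the higher detection of Ms4a4c in the CD1d-deficient pool lay in cells with 1 to 9 UMIs of the gene. Such cells were deep for their pool, with a median of 70029 UMIs in total for those with 2 to 9 and 27151 for those with 1, against 13508 over the CD1d-deficient pool.

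Cells with 10 or more UMIs of Ms4a6c were 36 WT (5.78%), 17 Jα18-deficient (2.34%) and 10 CD1d-deficient cells (2.58%), in cells as deposited and not thinned. They supplied 83.8%, 86.0% and 68.2% of the Ms4a6c UMIs. Single cells carried large parts of these sums, up to 18.9% of Ms4a4c (294 UMIs in 1 Jα18-deficient cell) and 19.1% of Ms4a6c (120 UMIs in 1 CD1d-deficient cell). For Ms4a4b the highest cell of a pool supplied 1.67% to 4.04%.

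**Figure D3:**
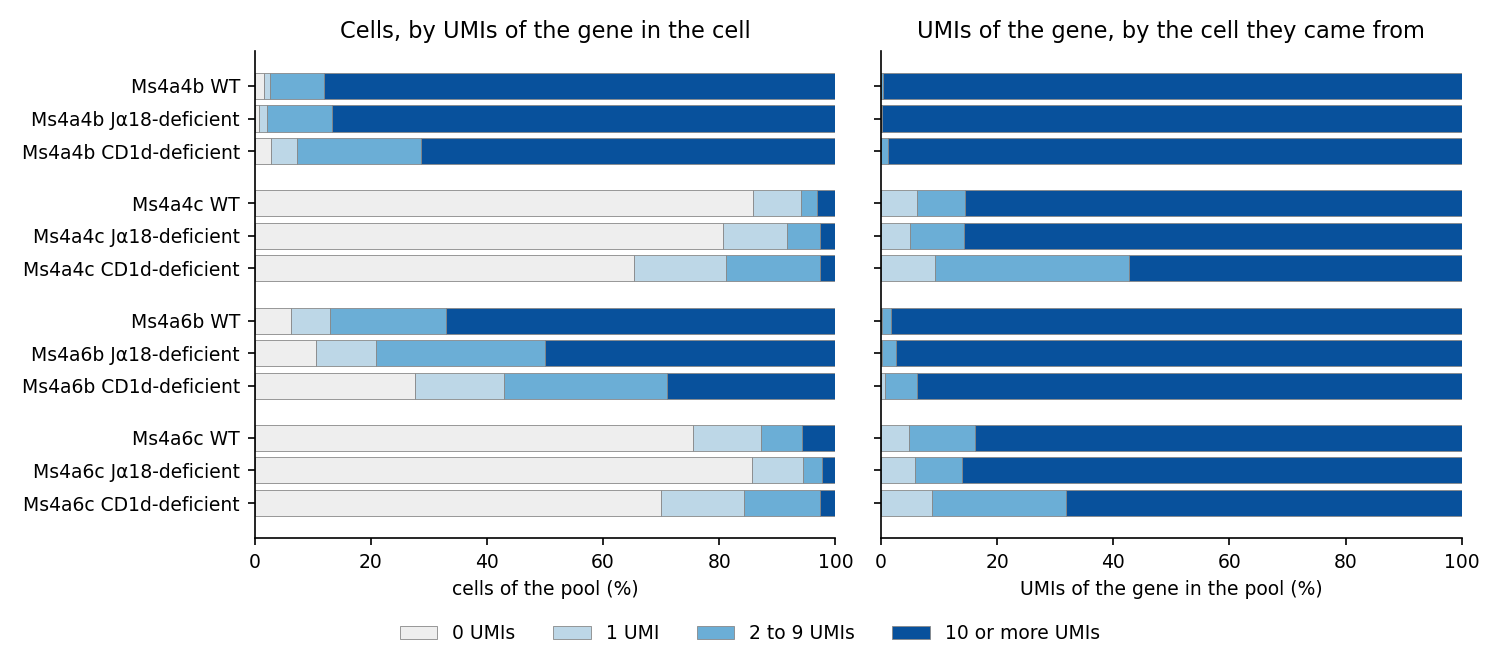
Left, percentage of cells of each genotype pool by the number of UMIs of the gene they held. Right, percentage of the gene's UMIs that came from cells of each class. Cells with 10 or more UMIs are 86.6% of Jα18-deficient cells for Ms4a4b and 2.62% for Ms4a4c, yet supply 85.8% of the Ms4a4c UMIs.

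Most cells rich in Ms4a4c were not also rich in Ms4a6c, but cells rich in Ms4a6c were few in every pool. Of the 20 WT cells with 10 or more UMIs of Ms4a4c, 3 also had 10 or more of Ms4a6c. The corresponding numbers were 0 of 19 in Jα18-deficient and 2 of 10 in CD1d-deficient mice. Over all cells, 10 or more UMIs of Ms4a6c were found in 5.78%, 2.34% and 2.58% of the WT, Jα18-deficient and CD1d-deficient pools. A UMI of both genes was held by 35, 18 and 68 cells in the same order. Independent detection would give 21.6, 20.1 and 40.2 cells, and depth was not matched in these counts. Across thinned cells the rank correlation of Ms4a4c with Ms4a6c was 0.02 in each pool, and that of Ms4a4b with Ms4a6b was 0.18, 0.29 and 0.33 in WT, Jα18-deficient and CD1d-deficient cells. Over all cells, not thinned, Ms4a4c with Ms4a6c gave 0.12, -0.03 and 0.23 in the same order of pools. The thinned values are descriptions over 523, 632 and 227 cells that share libraries and depth, and over all cells depth was unequal.

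Klf2, a transcription factor that drives S1pr1 in lymphocytes, had a UMI in 6 of the 20 WT, 12 of the 19 Jα18-deficient and 6 of the 10 CD1d-deficient cells rich in Ms4a4c. Over all cells Klf2 was present in 13.2%, 37.5% and 17.8%. Among cells rich in Ms4a6c, Klf2 was held by 4 of 36, 12 of 17 and 4 of 10 in the same order of pools. The cells rich in either gene were deeper than the rest, with medians of 58396 UMIs for Ms4a4c and 71040 for Ms4a6c in WT mice, where the median over all cells was 40467, and depth was not matched in these shares.

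Ms4a4c did not follow Ms4a4b as a fixed fraction. Its UMIs amounted to 0.969%, 0.966% and 1.75% of the Ms4a4b UMIs in WT, Jα18-deficient and CD1d-deficient cells. Of the Ms4a4c UMIs, 84.5%, 84.4% and 69.7% came from cells in which Ms4a4c reached 5% or more of Ms4a4b, which were 28, 35 and 47 cells. In 3 WT cells Ms4a4c exceeded Ms4a4b. With WT cells split into 4 equal classes by their Ms4a4b UMIs, Ms4a4c was detected in 5.13% of the lowest class and 21.2% of the highest, and depth was not matched between these classes.

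Of the other 13 Ms4a genes, Ms4a6d alone reached a comparable level, with 23.1, 15.7 and 17.1 CPM in WT, Jα18-deficient and CD1d-deficient cells. The 4 members held 99.4% of the family's UMIs. A count of 0 in all pools was found for 5 genes, and 6 had 1 to 20 UMIs in total. Ms4a1 had 4 UMIs, Ms4a2 6 and Ms4a7, a macrophage gene, 15, of which 13 were in the CD1d-deficient pool.

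The sorted cells carried their T cell and NK1.1 transcripts, with Cd3e in 89.6%, 96.7% and 74.9% of cells and Klrb1c in 92.3%, 95.6% and 92.0%. Tnfrsf18, the receptor beside which Ms4a4b and Ms4a6b proteins are found, stood at 377, 431 and 426 CPM in WT, Jα18-deficient and CD1d-deficient cells. Of 12 myeloid markers, 11, 10 and 11 had a UMI in these pools, with summed levels of 89.4, 25.3 and 619 CPM, mostly Lyz2. Marco was at 0 in all pools, Cd5l at 0 to 2 UMIs and Adgre1 at 3 to 25 UMIs. Lyz2 was not the only one present. Csf1r had 112, 135 and 133 UMIs in WT, Jα18-deficient and CD1d-deficient cells, and Cd68 had 187, 259 and 194. Cd68 was detected in 12.5%, 11.6% and 29.5% of cells in the same order. C1qb had 4, 122 and 21 UMIs, and Fcgr1 had 44, 6 and 46. B cell markers summed to 6.13, 11.0 and 14.4 CPM, hepatocyte markers to 12.3, 3.01 and 1.38 CPM and mast cell and basophil markers to 2.40, 2.03 and 1.03 CPM. Ms4a4c was higher in cells with a myeloid or B cell marker (Lyz2, Cd68, Fcgr1 and Ms4a7 not used) than without, at 36.5 against 18.9 CPM in WT, 41.2 against 13.9 in Jα18-deficient and 62.8 against 22.2 in CD1d-deficient cells. Ms4a6c was higher in such cells of the CD1d-deficient pool, at 59.6 against 22.1 CPM, and close in WT (49.5 against 43.1) and Jα18-deficient cells (16.1 against 19.2). Cells with such a marker were also deeper, with medians of 78651 against 34106 UMIs in WT mice. The medians were 107880 against 35387 UMIs in Jα18-deficient and 31815 against 9780 in CD1d-deficient mice. The part of other cell types in the levels of Ms4a4c and Ms4a6c was not tested.

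S1pr1 encodes the receptor by which lymphocytes leave tissues along a sphingosine-1-phosphate gradient. It had a UMI in 37 WT, 113 Jα18-deficient and 38 CD1d-deficient cells. In these cells Ms4a4c stood at 108, 40.9 and 165 CPM, against 18.5, 20.6 and 28.8 CPM in cells without S1pr1. Ms4a4c was thus higher in S1pr1+ cells of every pool, with the smallest difference in Jα18-deficient cells. The log2 ratios were 2.54, 0.99 and 2.52, a mean of 2.02 ± 0.89 (SD, n = 3 pools). This contrast led to the choice of Ms4a4c and is given with no test. It was higher past 2-fold in WT and CD1d-deficient cells and just short of 2-fold in Jα18-deficient cells, and 0.0649% of 4622 genes were higher past 2-fold in each pool.

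S1pr1+ cells were deeper than S1pr1- cells, with medians of 57516 against 40082 UMIs in WT mice. The medians were 84504 against 40853 in Jα18-deficient and 32616 against 12923 in CD1d-deficient mice. Thinned to 10000 UMIs, with classes set on the thinned counts, Ms4a4c was higher in S1pr1+ cells of every pool (mean log2 ratio 2.02). The same held when S1pr1+ cells needed 2 or more UMIs (2.41) and when each cell weighed the same (1.80). It also held without the highest cell of each class (1.75) and among cells without Cd8a (2.20). It was not so without the 5 highest cells of each class, which held 82.2%, 85.2% and 84.0% of the Ms4a4c UMIs of S1pr1+ cells. The levels were then 19.3 against 7.99 CPM in WT, 6.04 against 6.10 in Jα18-deficient and 26.4 against 18.3 in CD1d-deficient cells, a mean log2 ratio of 0.59, and 5 cells are a larger part of the small S1pr1+ classes. With Klf2 in place of S1pr1 it was 0.73 ± 0.67 (SD, n = 3 pools), with log2 ratios of 0.97, -0.02 and 1.25. The Jα18-deficient pool was the one in which Ms4a4c did not differ by Klf2.

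The 3 other genes moved less or in no common direction with S1pr1. Ms4a4b was higher in S1pr1+ cells of each pool, with log2 ratios of 0.17, 0.28 and 0.61 in WT, Jα18-deficient and CD1d-deficient cells. The mean for Ms4a4b turned to -0.019 without the 5 highest cells of each class. Among the 3 genes other than Ms4a4c, which this contrast chose, Ms4a4b alone was higher in each pool, as were 9.89% of 4622 genes. Ms4a6b gave -0.14, 0.27 and 1.12, and in the CD1d-deficient pool it stood at 1331 CPM in S1pr1+ Cd8a+ cells against 385 CPM in S1pr1+ Cd8a- cells. Ms4a6c gave 0.01, -0.55 and -1.44, a mean of -0.66 ± 0.73 (SD, n = 3 pools). That of Ms4a6c turned to 0.073 when each cell weighed the same and to 0.55 with Klf2, so no direction is read from it. No member was lower in each pool, against 19.2% of the genes, or 0.584% past 2-fold.

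Splitting S1pr1+ cells by Cd8a left few cells per class. Ms4a4c was highest in the 18 S1pr1+ Cd8a- cells of the CD1d-deficient pool, at 359 CPM, of which 1 cell supplied 52.6%. It stood at 101 CPM in the 20 S1pr1+ Cd8a+ cells of that pool. In the Jα18-deficient pool the same classes, of 56 and 57 cells, stood at 42.6 and 39.9 CPM. In WT mice they were 31 and 6 cells, at 89.6 and 184 CPM. With all cells, Ms4a4c was higher with than without S1pr1 in both Cd8a classes of all pools. In the S1pr1+ Cd8a+ classes 1 cell supplied 74.7%, 68.7% and 70.5% of the Ms4a4c UMIs in WT, Jα18-deficient and CD1d-deficient mice. Without the highest cell of each class, Ms4a4c in Cd8a+ cells of the Jα18-deficient pool stood at 12.5 CPM with and 14.2 CPM without S1pr1, and the 5 other pairs kept their direction.

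**Figure D4:**
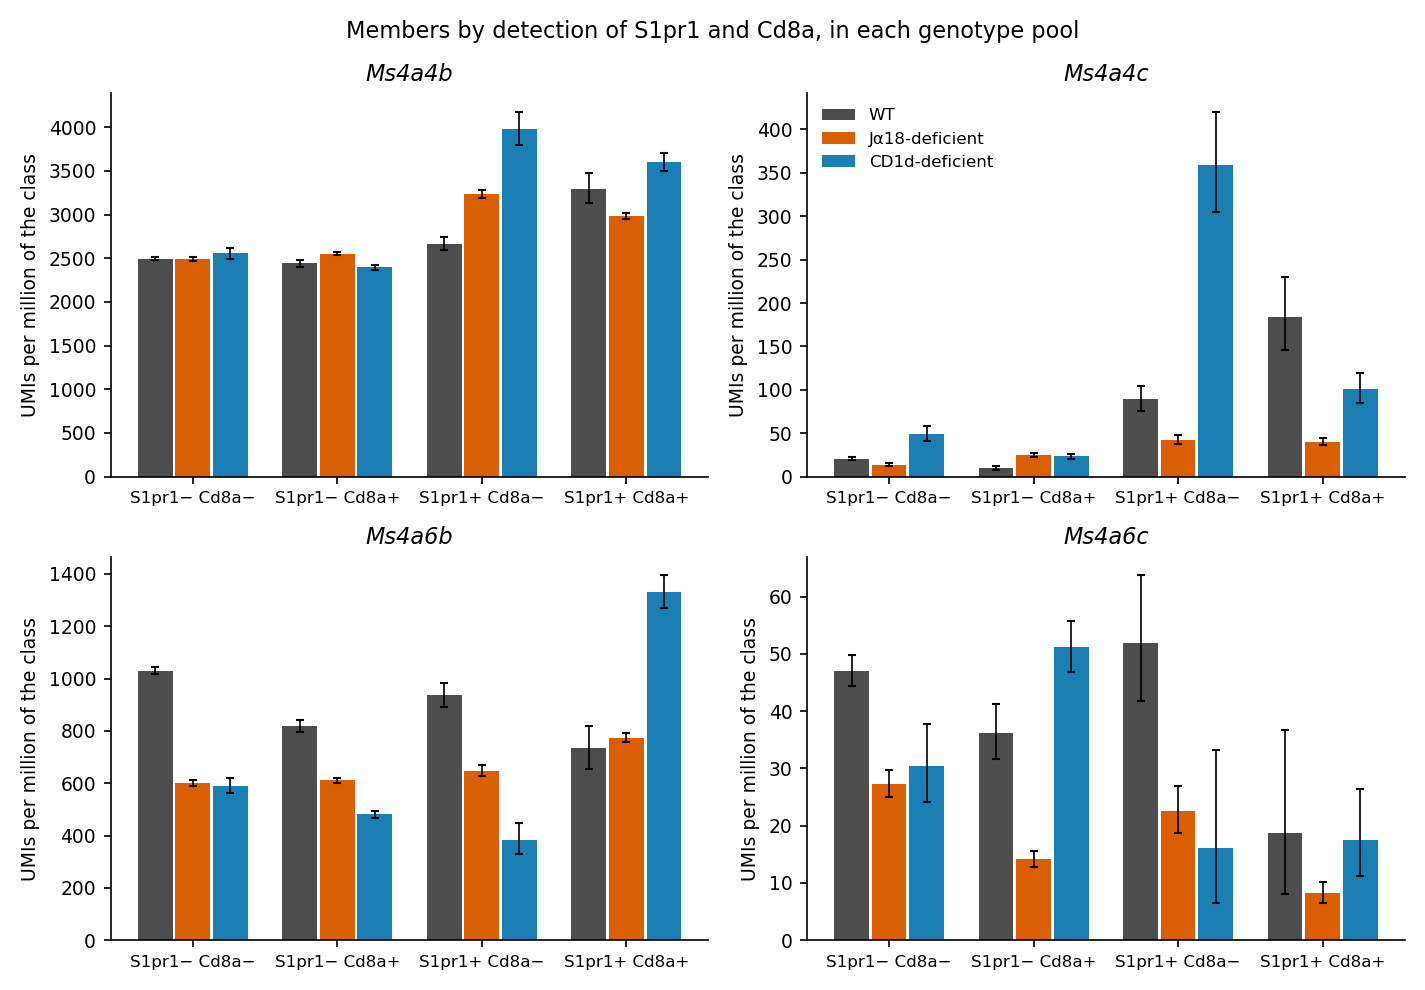
Level of each gene in CPM in the 4 classes of cells by detection of S1pr1 and Cd8a, for each genotype pool, with exact Poisson 95% intervals. Ms4a4c is highest in S1pr1+ classes of each pool and reaches 359 in S1pr1+ Cd8a- cells of the CD1d-deficient pool, while Ms4a4b stays between 2398 and 3986 in all classes.

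Cd8a marks a large share of the cells left in deficient mice, being detected in 15.6%, 44.7% and 60.5% of the WT, Jα18-deficient and CD1d-deficient pools. Whether the 4 genes differ with it was tested on UMIs summed per pool and class, with the pools as replicates, so that a difference had to hold across genotypes. Scaled by TMM, Ms4a4b stood at 2679 with and 2559 CPM without Cd8a in WT, 2511 and 2585 in Jα18-deficient and 2537 and 2759 in CD1d-deficient cells. Ms4a6b stood at 872 and 1046 CPM, 616 and 594, and 578 and 561 in the same order. By summed UMIs, both genes were thus close in the 2 classes and changed order between pools.

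The edgeR quasi-likelihood test gave Ms4a4b a log2 fold change of -0.03 (SE 0.09, Benjamini-Hochberg adjusted p = 0.9996) in Cd8a+ over Cd8a- cells. The 95% interval for Ms4a4b was -0.21 to 0.15, or 0.862-fold to 1.11-fold. For Ms4a6b the log2 fold change was -0.06 (SE 0.13, adjusted p = 0.9996 in edgeR), with an interval of -0.32 to 0.21.

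Ms4a4c stood at 22.9 with and 25.5 CPM without Cd8a in WT, 27.4 and 19.96 in Jα18-deficient and 32.3 and 92.7 in CD1d-deficient cells. Its log2 fold change was -0.40 (SE 0.45, adjusted p = 0.9996 in edgeR). Ms4a6c stood at 37.6 and 48.4 CPM, 11.8 and 25.5, and 47.3 and 28.4 in the same order. Its log2 fold change was -0.26 (SE 0.46, adjusted p = 0.9996 in edgeR). Both intervals were wide, at -1.34 to 0.55 for Ms4a4c and -1.22 to 0.70 for Ms4a6c, and the pools pointed in opposite directions. None of the 4 genes was called, against 0.0811% of 11102 genes (9, all higher in Cd8a+ cells, among them Gzma, Gzmb and Ccl5, a pair of granzymes and a chemokine).

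Cd8a+ cells were deeper, with medians of 54592 against 38267 UMIs in WT mice. With cells thinned to 10000 UMIs and the classes set again on the thinned counts, which left 49, 127 and 105 Cd8a+ cells, Ms4a4b was lower in Cd8a+ cells by a log2 fold change of -0.49 (SE 0.09, adjusted p = 0.051 in edgeR) and Ms4a6b by -0.58 (SE 0.14, adjusted p = 0.19). With the classes set by all UMIs of the same thinned cells (91, 294 and 158 Cd8a+ cells), the log2 fold changes were -0.22 for Ms4a4b (SE 0.07, adjusted p = 0.61 in edgeR) and -0.24 for Ms4a6b (SE 0.11, adjusted p = 0.88). With limma on mean log values of cells not thinned, they were -0.27 for Ms4a4b (SE 0.08, adjusted p = 0.22) and -0.36 for Ms4a6b (SE 0.09, adjusted p = 0.105). None of these passed the threshold of 0.05, and in all of these settings cells also weigh equally.

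**Figure D5:**
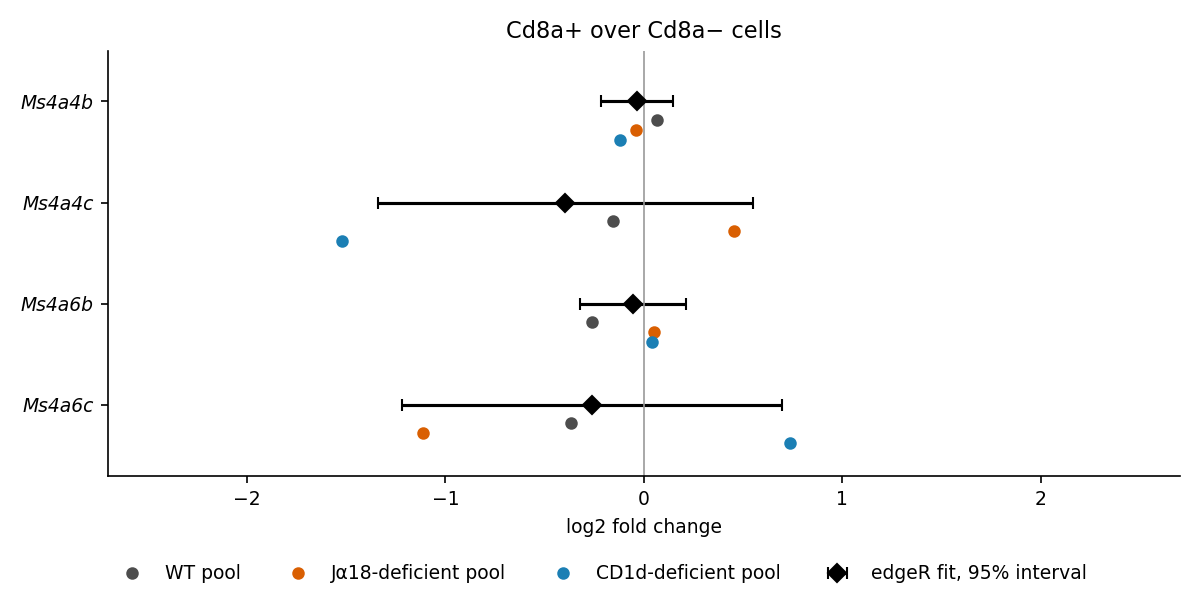
Log2 fold change of each gene in Cd8a+ over Cd8a- cells. Diamonds are the edgeR fit with its 95% interval and circles the 3 genotype pools; the interval of every gene includes 0, and those of Ms4a4b and Ms4a6b are the narrowest.

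Interferon-stimulated genes were counted beside the members. Of 16 such genes, 0 of 16 passed with Cd8a in edgeR, against 0.0811% of 11102 genes. Their median log2 fold change was 0.14 against -0.01 over all genes. In Jα18-deficient over WT cells, 1 of 8 that could be compared was lower past 2-fold and the list's median log2 ratio was -0.68, against 0.809% of genes and a median of 0.13 over all genes, beside -1.33 for Ms4a6c. In CD1d-deficient over WT cells, 3 of 7 were lower past 2-fold, against 3.25% of genes, with a median log2 ratio of -0.33 against 0.02 over all genes, beside -0.06 for Ms4a6c. In CD1d-deficient over Jα18-deficient cells, 2 of 8 were lower past 2-fold, against 7.43% of genes, with a median of 0.09 against -0.10, beside 1.28 for Ms4a6c. In S1pr1+ cells, 0 of 8 were higher past 2-fold in each pool, against 0.0649% of 4622 genes. With shares this small, neither this count nor that with Cd8a is read as a result. The list's median log2 ratio in S1pr1+ cells was -0.37 against -0.12 over all genes, beside 2.02 for Ms4a4c, which this contrast chose.

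Over the 12 sums of pool by S1pr1 and Cd8a class, Ms4a4b and Ms4a4c gave a Pearson r of 0.84. Ms4a4b and Ms4a6c gave -0.58, and Ms4a6b and Ms4a6c 0.09. The sums are split by S1pr1, the contrast that chose Ms4a4c, so the values for Ms4a4c are not independent of that choice. Across thinned single cells the rank correlation of Ms4a4b with Ms4a4c was 0.06, 0.12 and 0.08 in WT, Jα18-deficient and CD1d-deficient cells. Among 4622 genes, Ms4a4b was the third most like Ms4a4c, after Pafah1b1 (0.87) and Cytip (0.86). Zc3h18 (0.88) and Eftud2 (0.85) were among the 3 genes most like Ms4a4b. Pole4 (0.90), Rps12 (0.84) and Ptpn22 (0.83) were most like Ms4a6b, and Ifi208 (0.80), Serpina3g (0.79) and Zcchc18 (0.78) most like Ms4a6c. These sums share pools and unequal depth, and each r is a description of 12 points.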

How the data were processed

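Single NK1.1+CD3e+ liver cells were picked by hand after sorting and sequenced. Per the study's methods, the authors trimmed with Cutadapt 1.15 and used Tophat 2.0.12 for alignment against mm9 transcripts. They then removed duplicates by UMI and counted genes with HTSeq 0.10.0. The authors deposited 1 table of UMI counts. Their filter kept cells with over 500 genes and 10000 to 600000 transcripts, yet 353 of the 1735 deposited cells had under 10000 UMIs; all were kept, and the stated filter was an alternative. No doublets were called, since cells were picked singly. Strand handling and the assignment of reads shared by paralogs are not given in the sources used here.

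Cell names carry no library, so cells of a genotype formed 1 pool. Levels are UMIs per 1000000, with exact Poisson (levels) or Clopper-Pearson (shares) 95% intervals; a count of 0 was allowed up to 3 counts. Classes required 1 UMI of S1pr1, Cd8a or Klf2; shares of cells with a UMI are also given for cells thinned to 10000 UMIs. Cd8a classes were summed per pool and tested with edgeR 4.0.16 (TMM, filterByExpr, quasi-likelihood, a pool term, Cd8a left out), with Benjamini-Hochberg adjustment over all genes, and a gene was called below an adjusted p of 0.05 if its ln fold change exceeded 0.25 in size. The 3 pools are of different genotypes, and the p-values measure the spread between pools, not between mice. The edgeR fit also moderated each gene's spread with that of other genes, with 20.9 degrees of freedom for each member. The p-values and intervals therefore do not rest on the 3 pools alone. DESeq2 1.42.0, limma 3.58.1 (mean ln of 1 plus counts per 10000), other filters and leaving out pools were alternatives. Background shares counted genes with at least 100 UMIs and detection in 20% of the cells of a pool, with 1 CPM added for the S1pr1 contrast. Sequences and coordinates came from NCBIM37 with GENCODE M1 and, for promoters (all 4 genes matched), RefSeq. The members, gene lists and tests were chosen with earlier results of these data known. Named genes were the members, the Ms4a family, the genes that define classes, Tnfrsf18, Cd3e, Klrb1c, the interferon-stimulated list, the markers and the 3 genes most like each member; called genes named as examples were chosen after their values were seen. A gene, and the comparisons and list that need it, are not reported here.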

Additional observations from a re-analysis of the deposited data

Results flagged for a closer look

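The effect of Cd8a on Ms4a4c and Ms4a6c had opposite signs in different genotype pools, each pool being 1 value, and the difference between pools was not tested. Ms4a4c gave a log2 ratio of Cd8a+ over Cd8a- cells of 0.46 in Jα18-deficient and -1.52 in CD1d-deficient cells. Ms4a6c gave -0.37 in WT, -1.11 in Jα18-deficient and 0.74 in CD1d-deficient cells. The order of the pools for Ms4a4c was thus the reverse of that for Ms4a6c.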

How the results depend on the processing

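No paired analysis was possible because cell names carry no replicate number; the pool term took the place of a block. Ms4a6c in Jα18-deficient over WT cells (log2 ratio -1.33) moved to -1.50 with each cell weighed the same, -1.75 thinned, -1.17 without cells with a myeloid or B cell marker, -1.45 with TMM and -2.07 without the 5 highest cells, a setting added after seeing the data like those of the highest and 5 highest cells of each class and of thinned cells with classes set by all UMIs. Ms4a4c in Jα18-deficient over WT cells (0.09) reversed to -0.68, -0.99, -0.45, -0.028 and -0.34 in these 5 settings. Ms4a4b reversed to -0.084 with equal cell weight, -0.026 thinned and -0.024 with TMM in Jα18-deficient over WT cells, to -0.027 with equal weight, -0.099 without the 5 highest cells and -0.018 with TMM in CD1d-deficient over WT cells, and to 0.057 with equal weight, 0.069 thinned and 0.0056 with TMM in CD1d-deficient over Jα18-deficient cells. For S1pr1, Ms4a4c (mean 2.02) moved to 0.73 with Klf2 and 0.59 without the 5 highest cells of each class, where Ms4a4b reversed to -0.019 and Ms4a6b to -0.13; Ms4a6b reversed to -0.21 in cells without Cd8a, and Ms4a6c reversed to 0.073 with equal weight and 0.55 with Klf2. The causes were not tested.

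Genes called with Cd8a (9 higher and 0 lower, 533 at unadjusted p under 0.05) were 23 and 23 with DESeq2, 25 and 3 with limma, 30 and 11 without a filter, 0 and 0 without a pool term, 5 and 3 thinned, 12 and 5 thinned with classes set by all UMIs, and 15 and 3 with 2 UMIs of Cd8a. Leaving out 1 pool gave 7 to 24 higher (24 without the Jα18-deficient pool) and 1 to 9 lower (9 without WT, 7 without the Jα18-deficient pool). No member was called in any setting. Over all settings the adjusted p ranged from 0.051 to 0.9999 for Ms4a4b with Cd8a. Leaving out 1 pool moved the Cd8a log2 fold change from -0.094 to 0.019 for Ms4a4b, -0.86 to 0.16 for Ms4a4c, -0.13 to 0.036 for Ms4a6b and -0.73 to 0.16 for Ms4a6c. Ms4a4c and Ms4a6c rest on 629 to 1558 UMIs per pool and on few cells, which limits their tests.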
